A study of Mus musculus with 6 samples.

Results

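The loci Gm42418, Gm26917, Gm23935, Gm10800, Gm11814, Pgls and Rbfa of the mouse genome are described here across 6 RNA-sequencing libraries. They were chosen by the size of the shift in their read count between these libraries, relative to the library total, so the shifts themselves are given as a description and without a test. They are 7 of the 41388 genes in the deposited tables, and all 7 passed the filter on low counts that left 15026 genes. Each library came from sorted cells of dorsal root ganglia, which hold the cell bodies of sensory neurons, dissected at spinal levels T11 to S1 from C57BL/6 mouse embryos at 18.5 days post coitum. Every embryo carried RetFloxedEGFP and a Cre recombinase at Scn10a (Scn10a<tm2(cre)Jnw>, also labelled NaV1.8Cre). The EGFP reporter at Ret, the gene of a receptor for GDNF-family growth factors, is therefore tied to Cre from Scn10a, the gene of the NaV1.8 sodium channel of pain-sensing neurons, and the copy number of Ret that remains is not stated. There were 3 libraries per sex, named A, B and C. Most were pools of 40 ganglia from 2 embryos, but male B took 60 from 3 embryos and male C took 20 from 1 embryo. Values listed per sex below are in the order A, B, C. The genotype label of male C is shortened, and it was deposited under a record separate from the other 5; whether that marks a batch is not stated.

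Some of these loci stand for repeated or structural RNA and not for an ordinary gene. Ribosomal RNA makes up most of the RNA of a cell, is encoded by long arrays of near-identical units, and has scattered copies that annotations carry under predicted gene names. Satellite repeats are short units repeated in tandem around centromeres, and the stretch of chromosome 2 that holds Gm10800 is known for copies of the mouse major satellite. A processed pseudogene is a copy of a spliced messenger RNA pasted back into the genome, and its reads are hard to separate from those of its parent gene. Pgls and Rbfa are ordinary protein-coding genes. Pgls encodes 6-phosphogluconolactonase, an enzyme of the pentose phosphate pathway, and Rbfa encodes a factor that helps to mature the small subunit of the mitochondrial ribosome.

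The sequences below show how alike some of these loci are to other places in the genome, which decides how surely a read can be assigned to them. All are from GENCODE release M21 transcripts on GRCm38, written 5′ to 3′. Gm23935 (chr16:11144125-11144181, plus strand) is 57 bases long and is annotated as a microRNA gene. Of 5 related genes, Gm24270 (chr9:56223715-56223771, minus strand) and Gm24245 (chr4:139338304-139338360, plus strand) have the same 57 bases. Gm24187 (chr13:9834469-9834525, minus strand) differs in the base in capitals, and Gm25911 (chr1:167340369-167340424, minus strand) differs in the base in capitals and is 1 base shorter.
Gm23935: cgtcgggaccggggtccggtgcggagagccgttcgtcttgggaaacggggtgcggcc
Gm24270: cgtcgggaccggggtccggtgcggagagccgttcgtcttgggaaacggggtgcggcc
Gm24245: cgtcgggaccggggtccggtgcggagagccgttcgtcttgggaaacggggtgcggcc
Gm24187: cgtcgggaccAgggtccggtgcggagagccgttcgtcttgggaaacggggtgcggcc
Gm25911: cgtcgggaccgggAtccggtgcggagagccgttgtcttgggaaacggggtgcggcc

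Gm10800 (gene chr2:98666547-98667301, minus strand) and its neighbour Gm10801 (gene chr2:98662237-98664083, plus strand) share a T-rich sequence. The stretch printed starts at base 163 of the Gm10800 transcript and base 1 of the Gm10801 transcript. It covers 120 aligned columns, 105 of them identical, and capitals mark bases of Gm10801 that differ from Gm10800 or are absent there.
Gm10800: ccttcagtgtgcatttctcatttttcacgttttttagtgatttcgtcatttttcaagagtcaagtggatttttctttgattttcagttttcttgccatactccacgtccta
Gm10801: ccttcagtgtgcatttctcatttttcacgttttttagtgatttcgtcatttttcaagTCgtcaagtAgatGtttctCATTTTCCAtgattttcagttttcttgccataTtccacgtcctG

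Gm11814 (gene chr4:10438815-10439743, minus strand) is annotated as a processed pseudogene, and its best match among 141767 transcripts was Ldha (gene chr7:46841475-46855627, plus strand), which encodes the A subunit of lactate dehydrogenase. The printed stretch starts at base 1 of Gm11814 and at base 283 of the Ldha transcript, in its coding part. Of its 120 columns 118 are identical, more than over the whole alignment, which has 88.7% identity over 999 columns. Capitals mark bases of Ldha that differ from Gm11814.
Gm11814: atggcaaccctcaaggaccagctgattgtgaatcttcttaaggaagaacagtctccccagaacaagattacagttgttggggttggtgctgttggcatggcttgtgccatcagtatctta
Ldha: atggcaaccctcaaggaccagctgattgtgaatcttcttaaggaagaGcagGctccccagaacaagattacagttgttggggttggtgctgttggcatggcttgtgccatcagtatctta

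Gm42418 is the most abundant of the 7 loci. The first 150 bases of its transcript (chr17:39846958-39847107, plus strand) are shown because the RefSeq table for GRCm38.p6 lists the name Gm42418 as a synonym of Rn18s-rs5, a pseudogene related to 18S ribosomal RNA. No base is marked by capitals in this sequence.
Gm42418: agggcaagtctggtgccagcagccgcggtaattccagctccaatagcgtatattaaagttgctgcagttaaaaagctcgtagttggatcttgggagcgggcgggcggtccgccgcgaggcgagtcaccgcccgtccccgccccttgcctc

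Counted reads ranged from 15693013 in male C to 24033601 in female B. Levels are given as reads of a gene per 1000000 reads of its library (CPM), on library sizes scaled by edgeR's TMM method, with factors from 0.947 in male C to 1.04 in female C. Scn10a was present at 626 to 860 CPM and Ret at 172 to 244 CPM over the 6 libraries, so the genes that define the sort were detected in each. Genes of other cells were detected too: the summed CPM of 8 blood genes ran from 34.7 in male C to 1023 in male A, that of 11 glial genes from 1711 to 2108, and that of 7 fibroblast genes from 431 in female B to 728 in male B. In bulk samples, fewer cells of a type and less RNA per cell cannot be told apart.

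Over all tested genes, the median ratio between the highest and the lowest library was 1.69, with quartiles of 1.45 and 2.15. For each ratio 0.25 CPM was added to both sides, which lowers the ratio of low genes. Of the 7 loci, 6 reached a ratio of 4 or more, beside 3.51% of the 15026 tested genes, and Gm23935 stayed below it. Since the loci were picked for this spread, nothing is read from that count. Female C and male B were the 2 highest libraries for Gm42418, Gm26917, Gm10800, Pgls and Rbfa. These are 5 of 7 loci, beside 20.0% of tested genes. Both criteria were met by these same 5, beside 1.24% of tested genes. Of the 527 tested genes at a ratio of 4 or more, 187 had this pair highest. The pair was named with the values of the loci in view, so nothing is read from these counts either. Gm23935 was highest in male C and male B. Gm11814 was low in male B, female C and male C, at 0.376, 0.630 and 0.673 CPM. With 15 reads in female C and 10 in male C, their order rests on the scaling. On unscaled totals male C was the lower, at 0.637 against 0.652 CPM. Of tested genes, 18.4% had female C and male B as their 2 lowest libraries.

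**Figure D1:**
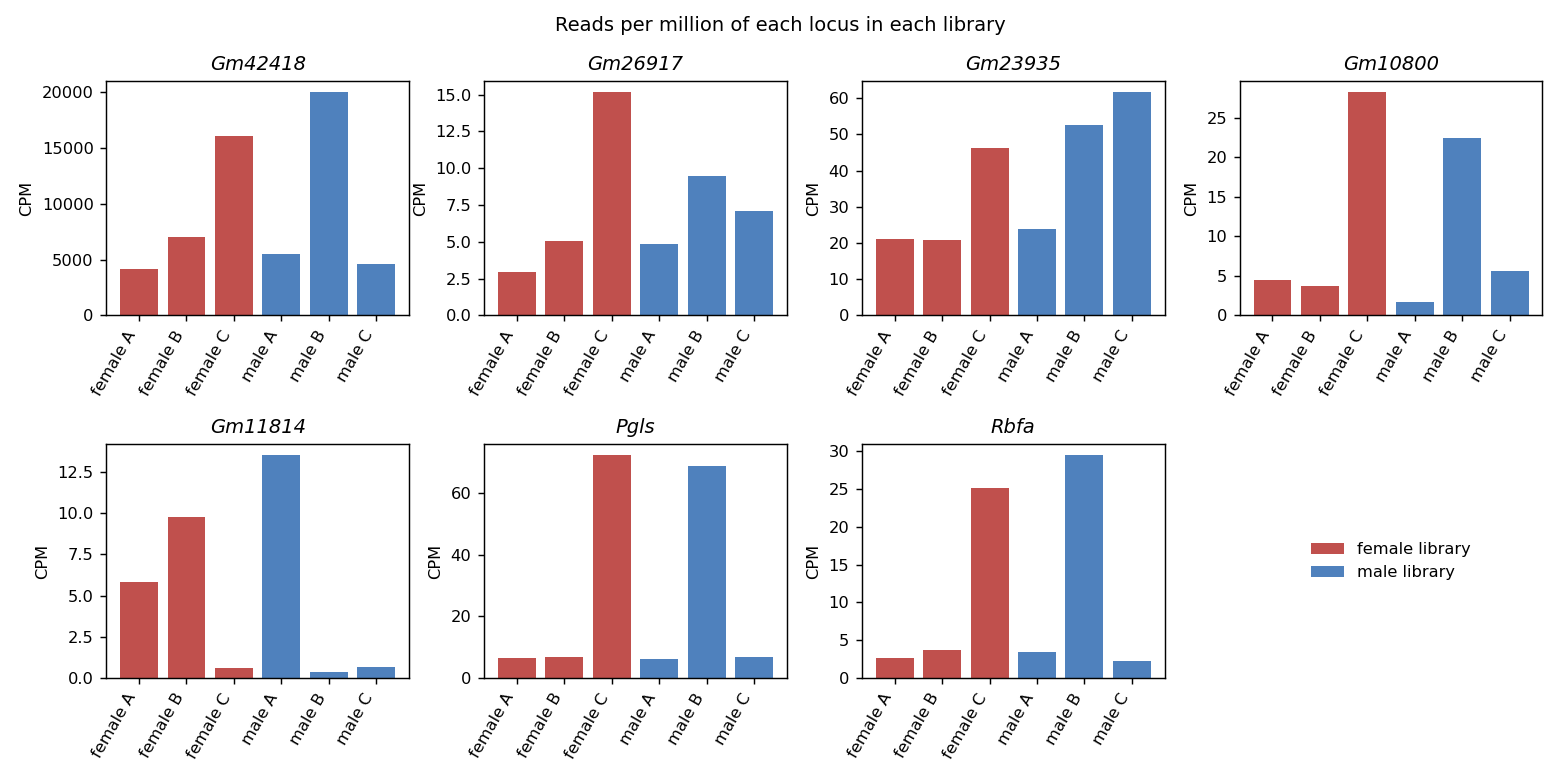
Level of each locus (vertical axes, CPM, each starting at 0) in each of the 6 libraries (horizontal axes), with red bars for female and blue bars for male libraries and 1 library per bar. Female C and male B carry the 2 tallest bars for Gm42418, Gm26917, Gm10800, Pgls and Rbfa. They are low for Gm11814, as is male C.

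**Figure D2:**
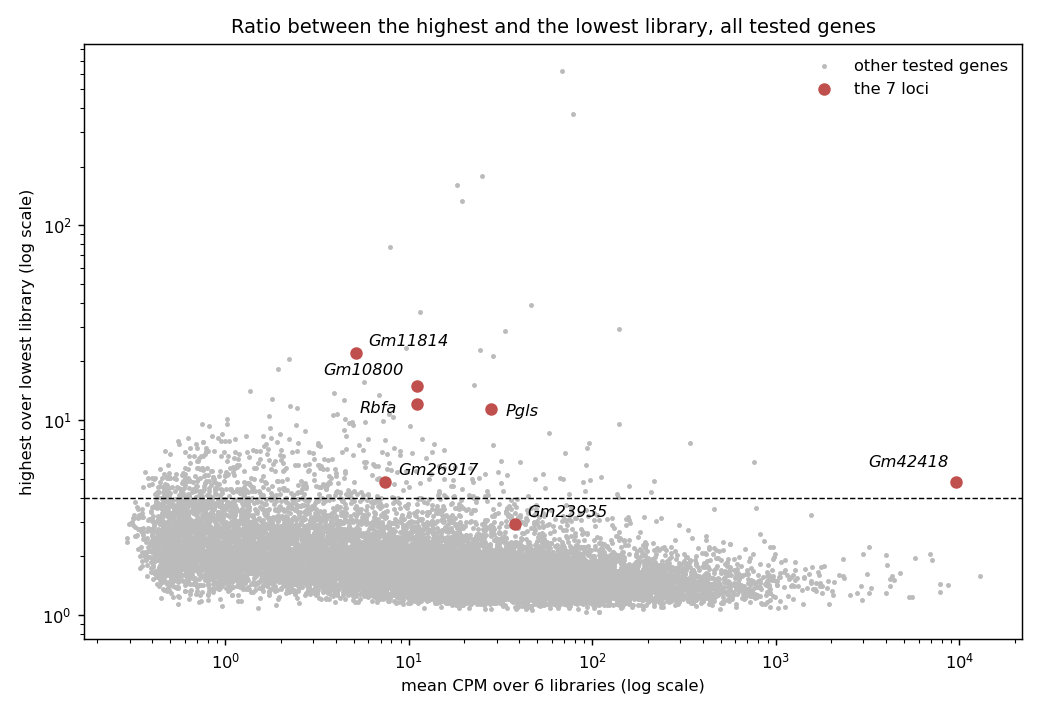
Ratio of the highest to the lowest library (vertical axis, log scale, 0.25 CPM added to both) against mean CPM over 6 libraries (horizontal axis, log scale) for 15026 tested genes in grey, with the 7 loci in red and a dashed line at a ratio of 4. Gm11814 ranks 13th and Gm42418 lies far to the right, at a mean of 9542 CPM, where few genes reach 4.

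Gm42418 (ENSMUSG00000098178) lies on chromosome 17 from 39846958 to 39848788 on the plus strand, as 1 piece of 1831 bases annotated as a lincRNA. It had 65771, 170928 and 381338 reads in the female libraries and 120441, 478403 and 68585 reads in the male libraries. In CPM these were 4145, 6997 and 16011 in the females and 5506, 19974 and 4617 in the males. Male B and female C stood above the other 4 libraries, which lay between 4145 and 6997 CPM. Female C, the lower of that pair, was 2.29 times the next library, female B, and the highest library was 4.82 times the lowest (rank 305 of 15026). The locus took 2.03% of all reads in male B (95% Wilson interval 2.02 to 2.04) and 0.416% in female A (0.413 to 0.419), where the intervals hold counting error alone, since amplified reads without molecular tags are not separate molecules. Nearly all of the combined share of the 7 loci was Gm42418: together they took 0.420, 0.716 and 1.68% of reads in the female libraries and 0.543, 2.05 and 0.445% in the male libraries.

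On the opposite strand of the same stretch GENCODE M21 places CT010467.1, annotated as ribosomal RNA, and AY036118, both of which align to Gm42418 at 100% identity and are not analysed here. A minus-strand gene of the deposited tables, ENSMUSG00000045999, shares 675 bases of exon with Gm42418 and had 0 to 6 reads per library. No source used here gives the strand setting of the counting, so reads from the opposite strands of this stretch cannot be told apart. Other loci that carry or copy ribosomal RNA sequence did not all move with Gm42418. Lars2, a mitochondrial leucyl-tRNA synthetase gene, was at 1382 CPM in male B and 2012 CPM in female C, its lowest and highest libraries. Gm15564, a predicted gene, was also lowest in male B, at 461 CPM, and highest in male C, at 734 CPM. The mitochondrial large ribosomal RNA mt-Rnr2 was highest in male B (9799 CPM) and female C (8486 CPM), with 4789 to 7096 CPM elsewhere. Its partner mt-Rnr1, the small ribosomal RNA of the mitochondrion, ran from 1148 CPM in male A to 189 CPM in male C. Of the 8 loci on the list these 4 were tested. Of these, 1 reached a ratio of 4 (mt-Rnr1), beside 3.51% of all tested genes. Female C and male B were the 2 highest libraries for 1, beside 20.0%. The median ratio of the 4 was 1.82, beside 1.69 over all tested genes.

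Gm26917 (ENSMUSG00000097971) lies 713 bases upstream of Gm42418 on the same strand, from 39845074 to 39846245 on chromosome 17, in 2 pieces that total 869 bases. It is annotated as a lincRNA, and no transcript of another gene matched at least 50% of a transcript of it in blastn. Shorter matches were not examined. Its reads numbered 47, 123 and 361 in the female libraries and 106, 227 and 105 in the male libraries. In CPM it stood at 2.96, 5.04 and 15.2 in the females and 4.85, 9.48 and 7.07 in the males. Female C was highest and male B second, but male B was only 1.33 times male C, so the libraries formed no clear break here. The ratio of highest to lowest was 4.80 (rank 308), close to that of Gm42418, at a far lower level in every library.

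Gm23935 (ENSMUSG00000076258), the 57-base locus whose sequence is printed above, had 334, 512 and 1102 reads in the female libraries and 523, 1259 and 916 in the male libraries. It stood at 21.1, 20.96 and 46.3 CPM in the females and at 23.9, 52.6 and 61.7 CPM in the males. Male C, male B and female C formed a high set of 3 libraries at 46.3 CPM or more, and the other 3 lay at 20.96 to 23.9 CPM. With a ratio of 2.92 it ranked 1487 of 15026. The locus lies inside the span of Zc3h7a, a zinc finger gene on the opposite strand, and shares no exon base with it. Zc3h7a did not follow it: its level was 111, 93.7 and 66.2 CPM in the female libraries and 72.6, 60.6 and 64.4 CPM in the male libraries, so it was lowest in the 3 libraries in which Gm23935 was highest. Txndc11, 9475 bases away on that strand, varied by a ratio of 1.42.

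The identical copies of Gm23935 received few reads. Gm24245 had 0, 9 and 20 reads in the female libraries and 7, 15 and 16 in the male libraries, so it too was highest in female C, male C and male B. Gm24270 had 1, 1 and 7 reads in the females and 2, 9 and 1 in the males. All 5 related genes together had 6 to 40 reads per library, against 334 to 1259 for Gm23935. Reads from within the shared 57 bases cannot be told apart between these 3 genes, and no source used here describes how reads that match several places were handled.

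Gm10800 (ENSMUSG00000075014) is annotated as protein-coding, in 5 pieces of 660 bases in all, on chromosome 2 from 98666547 to 98667301. The female libraries had 72, 90 and 672 reads, and the male libraries had 36, 538 and 83. The levels were 4.54, 3.68 and 28.2 CPM in the females and 1.65, 22.5 and 5.59 CPM in the males. Female C and male B formed a separate high pair, with male B 3.89 times the next library, male C. The ratio of highest to lowest was 15.0 (rank 19).

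Gm10800 did not move alone. The 12 genes related to it by sequence, at 89.2 to 93.4% identity, had 27, 33 and 247 reads together in the female libraries and 12, 184 and 25 in the male libraries. Against 1 read of these relatives, Gm10800 had 2.67, 2.73 and 2.72 reads in the females and 3.00, 2.92 and 3.32 in the males. The proportion between Gm10800 and its relatives thus stayed within 2.67 to 3.32 while the reads of Gm10800 ran from 36 to 672. Most relatives were too sparse to follow singly: 10 of 12 had any read and 2 passed the filter. Female C and male B were the 2 highest libraries for 7 of the 12, some of them at 3 reads or fewer. They were the 2 highest for each of the 2 tested relatives, beside 20.0% of tested genes. Copies that can take each other's reads are not separate members, so nothing is read from these counts. The relative with most reads was Gm10801, 2464 bases away on the opposite strand, at 0.945, 1.02 and 6.42 CPM in the females and 0.457, 4.88 and 0.808 CPM in the males, a ratio of 9.44. Gm10717, the other relative tested, ran from 0 reads in male A to 34 reads in female C. A read from a shared stretch can be given to any of these copies, so the split between them is uncertain and their sum is the safer value.

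Gm11814 (ENSMUSG00000084215), the lactate dehydrogenase pseudogene, is 929 bases long on chromosome 4. It was low in female C and male B, where the 5 loci named above peak, and also in male C. It had 92, 238 and 15 reads in the female libraries and 296, 9 and 10 in the male libraries. Its CPM values were 5.80, 9.74 and 0.630 in the females and 13.5, 0.376 and 0.673 in the males. Female A, female B and male A formed a high set at 5.80 CPM or more, and the other 3 libraries lay below 0.7 CPM. In male B the 95% Wilson interval for its 9 reads was 0.201 to 0.726 CPM on unscaled totals, and in male A it was 11.8 to 14.8 for 296 reads. The ratio was 22.0 (rank 13) with 0.25 CPM added. With 1 CPM added it was 10.6, below that of Gm10800 at 11.04.

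The parent gene showed no such swing. Ldha stood at 792, 734 and 999.9 CPM in the female libraries and 825, 1052 and 929 CPM in the male libraries, a ratio of 1.43. It was highest in male B, female C and male C, the libraries in which Gm11814 was low. Per 1000 reads of Ldha, Gm11814 had 7.32, 13.3 and 0.630 reads in the females and 16.4, 0.357 and 0.725 in the males. Gm11814 reads were therefore no constant share of Ldha reads. Ldhb, the gene of the B subunit, varied by a ratio of 1.36. Of the 35 genes related to Gm11814 by sequence, 22 were analysed here, and the 20 besides Ldha and Ldhb had 0 to 10 reads per library.

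**Figure D3:**
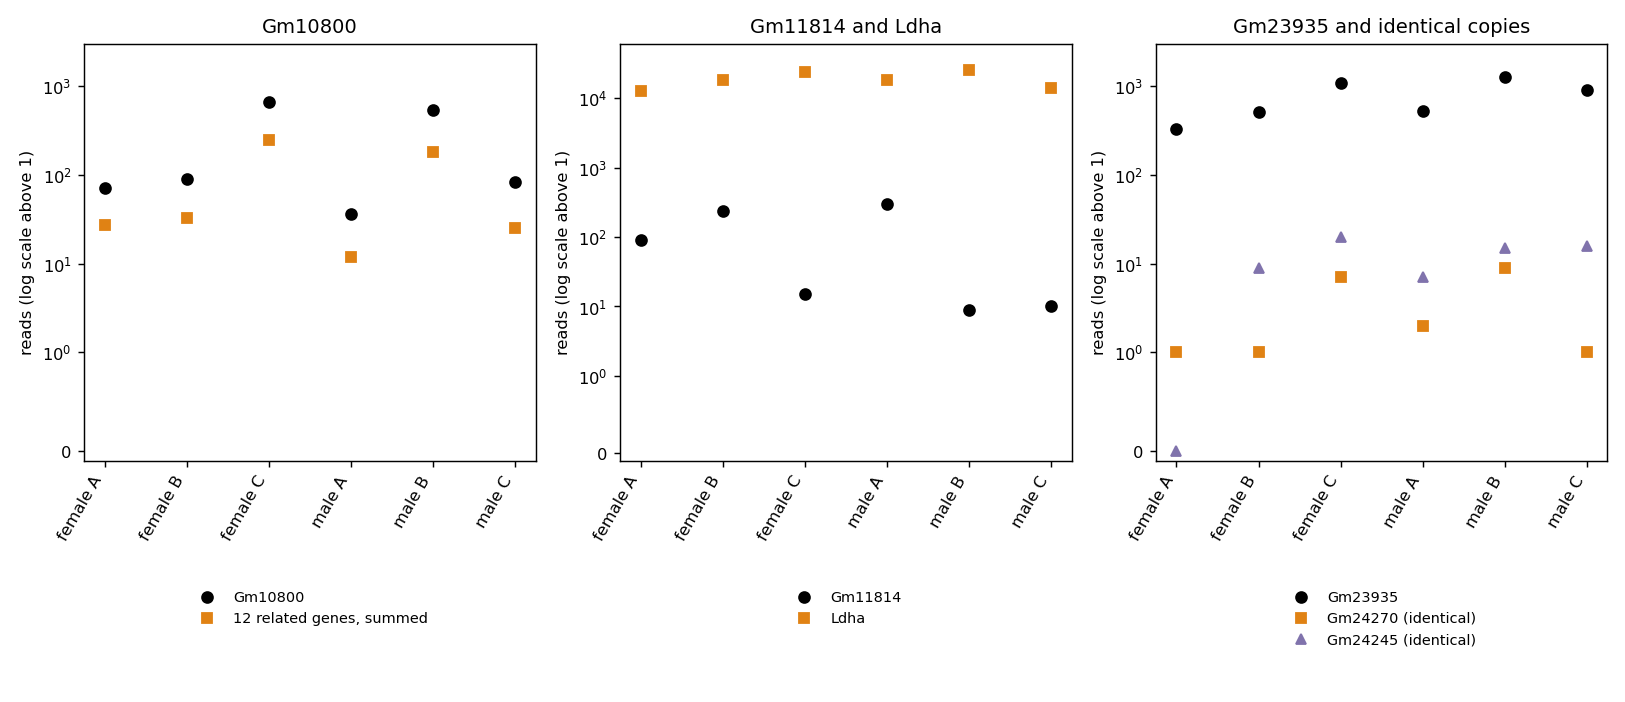
Reads per library (vertical axes, log scale above 1 with 0 shown at the bottom) of Gm10800 and its 12 relatives summed (left), Gm11814 and Ldha (middle), and Gm23935 and the 2 genes with identical sequence (right), with 1 point per library. Gm10800 and its relatives move in parallel, with 2.67 to 3.32 reads of Gm10800 per relative read, while Gm11814 falls to 9 reads in male B, where Ldha has 25186.

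Pgls (ENSMUSG00000031807) was nearly flat in 4 libraries and high in the other 2. Its 8 pieces lie on chromosome 8 from 71592176 to 71601092 on the plus strand and total 3770 bases. The female libraries had 106, 166 and 1721 reads, and the male libraries had 133, 1647 and 103. The levels were 6.68, 6.80 and 72.3 CPM in the females and 6.08, 68.8 and 6.93 CPM in the males. The 4 lower libraries lay within 6.08 to 6.93 CPM, and male B was 9.61 times the highest of them, the widest break of the 7 loci. The ratio of highest to lowest was 11.5 (rank 28).

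The genes beside Pgls shared the order of libraries only in part. Slc27a1, a fatty acid transporter gene 5468 bases upstream on the same strand, was at 7.37, 10.7 and 25.9 CPM in the female libraries and at 7.27, 20.5 and 12.9 CPM in the male libraries. It too was highest in female C and male B, with a ratio of 3.47. Fam129c, which shares 776 exon bases with Pgls on the same strand, had 9 to 38 reads per library, with female C highest at 1.60 CPM. A read from the shared bases can come from either gene, so the counts of both are uncertain there. Colgalt1, 9932 bases downstream, a collagen galactosyltransferase gene, varied by 1.27. The first piece of the deposited Pgls model is 2016 bases long, and the M21 transcripts of the gene include 1 of 2688 bases annotated as retained intron, so a count for Pgls can hold reads from unspliced sequence as well as from the spliced messenger.

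Other enzymes of the pentose phosphate pathway did not show this break. Of 11 other tested genes on the list, 0 reached a ratio of 4, beside 3.51% of all tested genes. Female C and male B were the 2 highest libraries for 3, beside 20.0%, and the 2 lowest for 3, beside 18.4%. The median ratio was 1.64, beside 1.69 over all tested genes. G6pdx, the enzyme step before Pgls, ran from 55.5 to 81.1 CPM, and Pgd, the step after it, from 128 to 199 CPM. Both were highest in male C. Tkt, transketolase, had the highest level of the list, from 264 CPM (female B) to 509 CPM (male C). Taldo1, transaldolase, ran from 179.8 to 305 CPM over the same libraries. The remaining genes at 1 CPM or more, H6pd, Rpia, Rpe, Shpk, Prps1, Prps2 and Rbks, had ratios of 1.35 to 2.37. Tktl1 did not pass the filter.

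Rbfa (ENSMUSG00000024570) had the same shape as Pgls. It lies on chromosome 18 from 80192265 to 80200658 on the minus strand, in 6 pieces of 1377 bases in all. It had 42, 90 and 597 reads in the female libraries and 75, 706 and 33 in the male libraries, which are 2.65, 3.68 and 25.1 CPM and 3.43, 29.5 and 2.22 CPM. The 4 lower libraries lay within 2.22 to 3.68 CPM, and female C was 6.43 times the highest of them. The ratio of highest to lowest was 12.0 (rank 25). Its neighbours on the opposite strand did not follow: Gm16286, 6107 bases away, varied by 1.57 and was highest in male C, and Txnl4a, a spliceosome component gene, varied by 1.27.

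Of 22 other tested genes for assembly of the mitochondrial ribosome, 2 reached a ratio of 4, beside 3.51% of all tested genes. Female C and male B were the 2 highest libraries for 5, beside 20.0%, and the 2 lowest for 5, beside 18.4%. The median ratio was 1.65, beside 1.69. The 2 at a ratio of 4 were Malsu1 and Mpv17l2. Malsu1, a factor for assembly of the large subunit, which had the largest ratio of the list after Rbfa, was at 3.84, 4.13 and 13.6 CPM in the female libraries and 3.84, 17.2 and 1.95 CPM in the male libraries. Mpv17l2, named after its values were seen, was at 2.77, 4.54 and 16.5 CPM in the females and 4.85, 16.5 and 2.76 CPM in the males. Dhx30, an RNA helicase with the highest level of the list, varied by 1.62 and was highest in female A and male C.

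**Figure D4:**
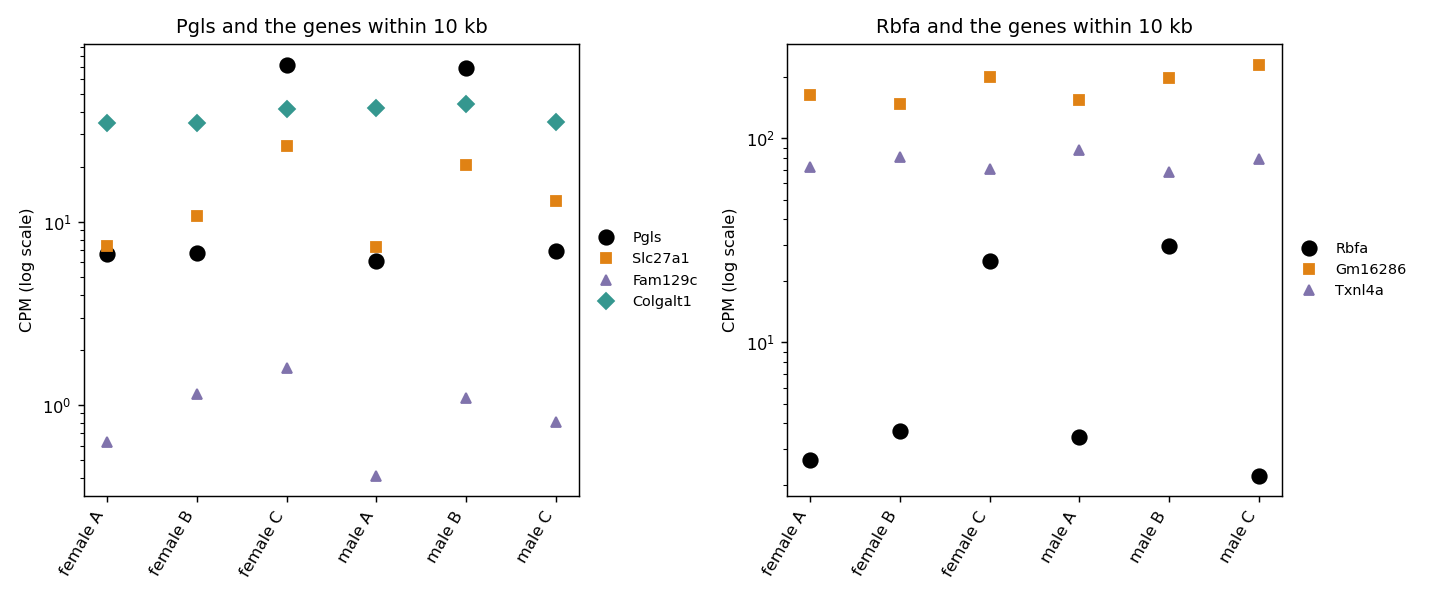
CPM (vertical axes, log scale) of Pgls (left) and Rbfa (right), black points, and of each gene of the deposited tables within 10 kb, coloured symbols, in the 6 libraries (horizontal axes), with 1 point per library. Pgls and Rbfa are high in female C and male B, Slc27a1 shows a smaller rise there, and Colgalt1, Gm16286 and Txnl4a vary by ratios of 1.57 or less.

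Per length of transcript, Gm42418 stood far above the rest, with a mean of 5211 ± 3679 RPKM, which is CPM per kilobase (SD, n = 6 libraries). Gm23935 followed at 662 ± 315 RPKM, a value set by its length of only 57 bases. Gm10800 (16.7 ± 17.1 RPKM), Gm26917 (8.54 ± 5.05), Rbfa (8.05 ± 9.17), Pgls (7.41 ± 8.76) and Gm11814 (5.52 ± 5.99) came next. Among these last 5, Gm10800 differed from the others by less than its own SD, and the differences among the remaining 4 were smaller than the SD of each.

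Sex is the only contrast the labels give. Of the 7 loci, 0 were called between female and male libraries by edgeR's quasi-likelihood test at an adjusted p below 0.05, beside 0.0333% of tested genes (5 of 15026). For each locus the adjusted p was 0.99968. Across all genes 166 had an unadjusted p below 0.05, and 7 genes were called by DESeq2 and 6 by limma-voom. DESeq2 gave no p for Pgls and Rbfa, and none of the other 5 loci was called by it; limma-voom called none of the 7. The libraries' p-values measure the spread between pools of 1 to 3 embryos. Female C and male B, of opposite sex, were the 2 highest libraries for 5 of the 7 loci, and the female and male ranges overlapped for every locus.

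Gm23935 came closest to a difference, with 29.4 ± 14.6 CPM in females and 46.0 ± 19.7 CPM in males (SD, n = 3 each). Its log2 fold change of female over male was -0.64 with a standard error of 0.39 (edgeR, unadjusted p = 0.129). The other loci had small fold changes with wide errors. Gm42418 averaged 9051 ± 6194 CPM in females and 10032 ± 8621 CPM in males, a log2 fold change of -0.15 ± 0.58 (SE). Pgls averaged 28.6 ± 37.8 and 27.3 ± 35.9 CPM, a log2 fold change of 0.07 ± 1.04. These errors leave room for changes of either sign, and a p that misses the threshold does not show equal levels. For Rbfa the log2 fold change was -0.17 ± 0.98, for Gm26917 0.12 ± 0.52, for Gm10800 0.29 ± 0.90 and for Gm11814 0.13 ± 1.13.

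Base composition moved with the libraries. The share of G and C in the longest transcript was 73.7% for Gm23935, 69.1% for Gm26917, 60.2% for Gm42418, 59.4% for Rbfa and 57.4% for Pgls, against a median of 49.3% over tested genes. All 5 were above the 89th percentile. For Pgls the longest transcript is the one annotated as retained intron, and its protein-coding transcripts had 65.4 to 65.9%. For Gm26917 the transcript of 869 bases had 72.3%. Gm11814 lay near the middle at 49.9%, and Gm10800, at 35.9%, was below the 1st percentile. Across 14938 genes, which are not independent replicates, GC content and the deviation of a library from the gene's mean log2 CPM had a Spearman rho of -0.60, -0.30 and 0.52 in the female libraries and of -0.35, 0.46 and 0.18 in the male libraries. GC-rich genes were thus read more in female C and male B, and less in female A, female B and male A. In the richest of 10 bins of genes by GC content, the median deviation was 0.36 log2 units in female C, 0.40 in male B and -0.38 in female A.

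**Figure D5:**
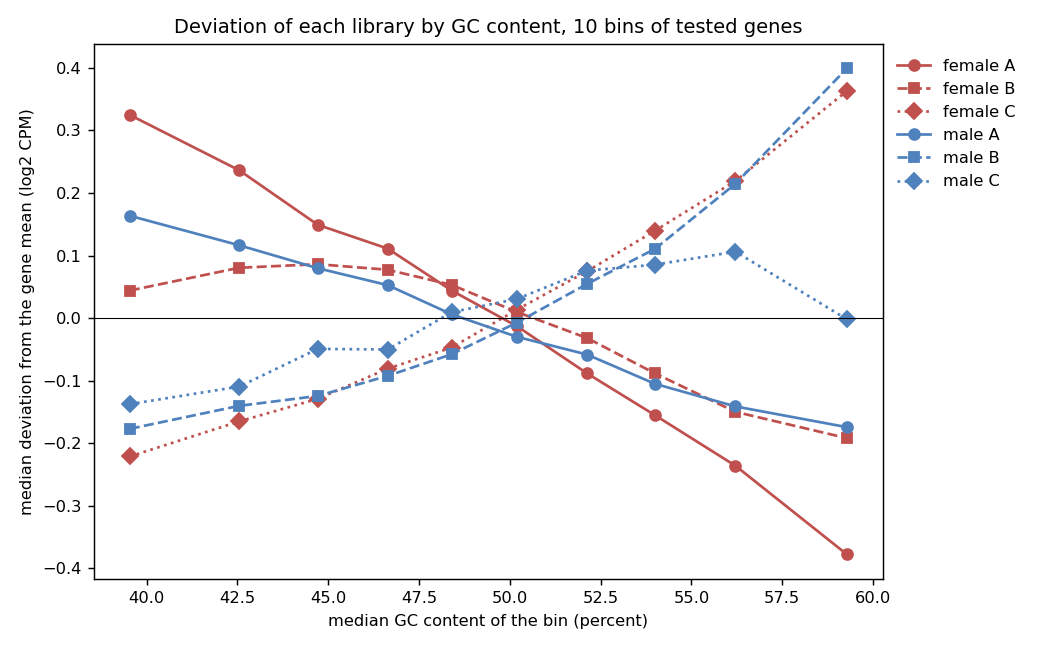
Median deviation of a library from each gene's mean over libraries (vertical axis, log2 CPM) in 10 bins of tested genes ordered by GC content (horizontal axis, median percent of the bin), with 1 line per library, red for female and blue for male. Lines of female C and male B climb to 0.36 and 0.40 in the richest bin, and that of female A drops from 0.32 to -0.38.

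When the GC trend of each library was removed, a step added after seeing the data, the loci parted. Gm42418 had a ratio of 3.19 and Gm26917 of 2.19, both below 4, and Gm23935 of 3.14. Pgls had a ratio of 8.68 and Rbfa of 9.24. Gm10800, poor in GC and high in the same libraries, had 20.1, and Gm11814 had 22.3. After this step 4 of 7 loci reached 4, beside 2.99% of 14938 genes (446).

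Without female C and male B, also a step added after seeing the data, 1 of 7 loci reached a ratio of 4, beside 1.93% of tested genes. The ratio over the other 4 libraries was 1.13 for Pgls, 1.59 for Rbfa, 1.69 for Gm42418, 2.28 for Gm26917 and 3.08 for Gm10800. The pair left out is the 2 highest libraries of these 5 loci, so a smaller ratio follows from the step itself. Gm11814 still had a ratio of 14.9, with male C low, and Gm23935 kept 2.92. Over all tested genes, 290 reached 4 without the pair, against 527 with it.

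Genes of the immediate early response, which neurons and other cells switch on within minutes of stimulation or stress, were also high in female C and male B. This list was chosen with earlier results of these data known. All 9 tested genes on it had female C and male B as their 2 highest libraries, beside 20.0% of all tested genes. All 9 also reached a ratio of 4, beside 3.51%, and 1.24% of tested genes met both criteria. The median ratio was 7.60, beside 1.69 over all tested genes. The summed CPM of the 9 was 326, 326 and 1104 in the female libraries and 145, 1046 and 662 in the male libraries. Fos, the most abundant, ran from 76.8 CPM in male A to 587 CPM in female C, and Fosb had the largest ratio, 21.4. Male C held 482 CPM of Fos, most of its sum of 662, while Arc was lowest there, at 0.269 CPM. The part of these genes in the shifts of the 7 loci was not tested.

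Replication-dependent histone genes have messengers that typically end in a stem-loop and lack a poly(A) tail. Of 8 tested, 4 had female C and male B as their 2 highest libraries, beside 20.0% of all tested genes. A ratio of 4 was reached by 1 gene, beside 3.51%. That gene was Hist1h1e, with 0.567 to 5.39 CPM, and Hist1h1c, the most abundant, ran from 14.1 CPM in female A to 47.1 CPM in male B. Of 3 tested structured noncoding RNAs, 0 had that pair as the 2 highest libraries, and the most abundant, Vaultrc5, a vault RNA, had a mean of 0.972 CPM.

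Markers of other cells are given beside the shares over all tested genes. Of these, 20.0% had female C and male B as their 2 highest libraries and 18.4% as their 2 lowest. A ratio of 4 was reached by 3.51%. Of 5 tested blood genes, 0 had female C and male B as the 2 highest libraries, though all 5 reached a ratio of 4, with Hbb-bs, a beta globin, highest in male A and Hbb-bt at the largest ratio, 39.1. Of 10 tested glial genes 4 had that pair highest and 1 had it lowest. Apoe, at a ratio of 2.48, was among the 4, and Pmp22, the most abundant, was not. Of 6 tested fibroblast genes 3 had that pair highest, and 1, the most abundant of the list, had it lowest. A ratio of 4 was reached by 2. Of these, Col1a1, a collagen, ran from 30.0 CPM in female B to 150.3 CPM in male B. Of 8 endothelial and mural genes 1 had that pair highest, 1 had it lowest and 2 reached a ratio of 4. Rgs5 was the most abundant. Tek had the largest ratio, 6.95, at a mean of only 0.867 CPM and 3 to 42 reads per library. Immune markers had summed levels of 1.95 to 2.42 CPM and skeletal muscle markers 7.20 to 10.8 CPM, the latter mostly from Acta1, a skeletal actin, with a mean of 8.08 CPM. On each of these 2 lists 1 gene was tested. Of 13 nociceptor genes, 1 had that pair highest, 5 had it lowest, 0 reached a ratio of 4 and the median ratio was 1.47. The part of these cells in the shifts of the 7 loci was not tested.

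The genes whose pattern over libraries was most like each locus were found by Pearson's r of log2 CPM over the 6 libraries, among 8763 tested genes with a mean of 10 CPM or more. With only 6 points, for most loci split into a high and a low set, and so many candidates, high values of r are given as a description only. Ydjc (r = 0.996 with Pgls) repeated its shape, at 6.81, 7.82 and 37.2 CPM in the female libraries and 7.50, 40.1 and 6.93 CPM in the male libraries. Kifc2, a kinesin gene (r = 0.998), and Phb2, prohibitin 2 (r = 0.997), varied less, by ratios of 2.46 and 1.49. For Rbfa they were H13, a signal peptide peptidase gene (r = 0.999), Uqcrfs1, the Rieske iron-sulfur subunit of respiratory complex III (r = 0.999), and Atp1b3, a sodium pump subunit (r = 0.998). Uqcrfs1 ran from 41.3 CPM in male C to 179.9 CPM in male B, a ratio of 4.33.

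For the other loci the nearest genes varied less than the locus itself. Gm42418 was matched by Arpc2, with a ratio of 1.41, and Adam11, with a ratio of 3.55. Gm26917 was matched by Llgl1, Mmab and R3hcc1, with ratios of 1.47 to 2.12. Mtg2, a GTPase of the mitochondrial ribosome list, Bcl10 and Rab4a were nearest to Gm23935, with ratios of 1.32 to 1.73. Arfgap1, March4 and Kcnt1 were nearest to Gm10800, with ratios of 1.51 to 1.82, against 15.0 for the locus. Cadps, Cpd and Ermp1 were nearest to Gm11814, lower in female C, male B and male C than in the other libraries, with ratios of 1.55 to 1.77.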

How the data were processed

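The data are 6 libraries, 3 per sex, made, per the labels' protocols, from 10 ng of RNA (SMARTer kit, 12 PCR cycles). The submitters' processing notes name featureCounts 1.4.5, Subread and the build GRCm38.p2. No source used here gives the aligner, the strand setting or the handling of reads with several matches. The deposited count column holds whole reads per gene. The deposited CPM is the count scaled to the total of its library, and RPKM as deposited is CPM per kilobase, so both were recomputed with TMM library sizes.

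Gene symbols came from GENCODE M21 by identifier (97.3% of 41388 genes). Sexes were compared with edgeR 4.0.16 (R 4.3.3): filterByExpr, TMM, quasi-likelihood test, two-sided, Benjamini-Hochberg over all tested genes at 0.05. DESeq2 1.42.0, limma-voom 3.58.1, other scalings and filters, the library letter as a replicate block and each library left out were alternatives. Ratios had 0.25 CPM added. Related transcripts covered at least 50% of a locus in blastn (BLAST 2.17.0, e-value 1e-5). GC trends were removed by lowess with a span of 0.3, on the GC content of the longest transcript of each gene. The largest share of equal counts between 2 libraries was 1.04%, so none was a duplicate.

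The loci and gene lists were chosen with earlier results of these data known. Genes named were the 7 loci, genes within 10 kb, the 3 tested genes of highest r per locus, and from each list the most abundant gene and that of largest ratio at 1 CPM or more, with every rRNA-related, repeat-like and pentose phosphate gene at that level. Any further gene was picked with its values in view. One gene that this rule gives is not reported here.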

Additional observations from a re-analysis of the deposited data

How the results depend on the processing

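The count of genes that vary 4-fold between libraries (527) depended on the settings: it was 144 with 1 CPM added, 347 with a filter of at least 1 CPM in 3 libraries, 290 without female C and male B, and 279 to 488 with each library left out in turn, the lowest without male C. The number of genes called between sexes (5) was 12 with no filter on low counts and 7 without female C and male B. The library letters did not pair the samples (r of same-letter deviations 0.28, -0.29 and -0.08), and with the letter as a replicate block 5 genes were called. No locus was called in any setting that gave it a p, and the lowest adjusted p was 0.782; DESeq2 gave none for Pgls and Rbfa. The log2 fold change of female over male was negative for Gm23935 in every setting run, from -1.13 (without female C) to -0.38 (without male C) when each library was left out in turn. For the other 6 loci its sign changed with the libraries used. Without female C and male B it was 0.14 for Gm42418, -0.55 for Gm26917 and 0.16 for Rbfa. For Gm26917 it was -0.11 in limma-voom and -0.17 with the replicate block. Leaving out each library, it ran from -0.85 to 0.84 for Gm42418, -0.82 to 0.50 for Gm26917, -1.28 to 1.78 for Gm10800, -0.63 to 3.40 for Gm11814, -2.02 to 2.14 for Pgls and -1.89 to 1.88 for Rbfa. The cause was not tested. The ratios of the 7 loci are given with the results above. Of the 7 loci, 6 reached 4 under library totals, RLE factors, totals without the loci and 1 CPM added. Over all 15026 tested genes, 573, 522, 594 and 144 did so under these settings, in that order. The loci were picked for this spread, so nothing is read from their count. Without male B the ratio of Gm42418 was 3.86, and without female A or female C that of Gm26917 was 3.02 or 3.03. Without male A that of Gm10800 was 7.24. Depth limits Gm11814, with 9 to 15 reads in 3 libraries, and most relatives of Gm10800.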
